A study of Mus musculus with 4 samples.

Results

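A group of 10 genes of the NF-kB pathway was followed across cultures of CT26 and MC38, the mouse colorectal cancer lines of the study, with and without knockdown of Aurora-A. The genes were Nfkb1, Nfkb2, Rela and Relb, which encode subunits of the transcription factor, Nfkbia and Nfkbie, which encode its inhibitors, and the target genes Tnfaip3, Birc3, Icam1 and Vcam1. Each was taken as the row that carries its symbol, so each was found by its name, among 51905 genes in all. The comparison that the design allows is of the Aurora-A hairpin (shmaurka-1) with the GFP hairpin (shGFP) within each line, and of CT26 with MC38 under the same hairpin.

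RNA-seq was done on 1 library for each of the 4 conditions, which were CT26 shGFP, CT26 shmaurka-1, MC38 shGFP and MC38 shmaurka-1. All 4 cultures were wild type by label, and all had been infected with a lentivirus, selected with puromycin and passaged before RNA was taken 48 h after seeding, so the shGFP cultures carry a hairpin, a virus and a selection too. Only 1 hairpin against Aurka was sequenced, and nothing states that a culture was a single clone. CT26 was kept in RPMI-1640 and MC38 in high-glucose DMEM. For tumours the study put CT26 into BALB/c mice and MC38 into mice of another strain, each matched to the line. Line, medium and strain of origin thus cannot be told apart. With no replicate culture in any condition, the values within a line compare 2 libraries, and their 95% intervals are exact binomial intervals on fragments that cover counting error only.

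NF-kB is a family of dimers that wait in the cytoplasm until a signal frees them. In the canonical route the IKK complex marks the inhibitor encoded by Nfkbia for destruction, and dimers of RelA with p50, the product of Nfkb1, enter the nucleus. In the non-canonical route the kinase encoded by Map3k14 drives the cutting of the Nfkb2 product p100 to p52, which pairs with RelB. Several members are themselves NF-kB targets, among them Nfkbia and Tnfaip3, whose products shut the signal off again, and Icam1 and Vcam1, adhesion molecules that leukocytes bind. In colorectal tumours the pathway is known for linking inflammation to the survival of tumour cells.

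The libraries held 22207768 to 23752269 fragments, and Aurka, the targeted gene, had 5724 with shGFP against 1093 with shmaurka-1 in CT26, and 2300 against 413 in MC38, a log2 fold change of -2.27 and -2.45. The labels call CT26 a fibroblast line and MC38 an epithelial one. Fibroblast markers were over 1 FPKM (fragments corrected for the length of the transcript and the depth of the library) in both libraries for 10 of 12 genes in each line, while epithelial markers reached that level for 2 of 12 in CT26, Krt18 and Krt20, and 0 of 12 in MC38. Epcam and Cdh1 lay below 0.05 FPKM in all 4 libraries, which goes against the epithelial label of MC38, whereas Vil1 (38 and 29 fragments) and Esrp1 (46 and 27) were detected in MC38 and had 0 fragments in CT26. Endothelial markers passed 1 FPKM in both libraries of a line for 0 of 6 genes, with a summed level of 0.916 to 1.04 FPKM in CT26 and 2.06 to 2.65 in MC38, and of 7 leukocyte markers only Cd68 did, with Cd3e at 0 throughout.

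Promoter windows were available for 7 of the 10 genes in RefSeq (GRCm38.p6, the build of the files), each running from 250 bases before a RefSeq start of the gene to 50 after it. They were searched on both strands for 3 spellings of an NF-kB element. The first is 10 bases long, begins with GGG and ends with TTCC, the second is 10 bases long, begins with GGG and ends with CCC, and the third is GGAANTTCC, where N is any base. Matches to different spellings can cover the same bases. A match was found for 6 of the 7 genes, against 18.7% of all 27025 genes with a window. By window the count was 9 of 10, since Nfkb2 has 3 windows and Tnfaip3 has 2, against 16.9% of all 32851 windows. The 5 windows printed here, 1 for each gene, are those of 3 genes called different between the lines (Tnfaip3, Nfkbia, Nfkb2), of Birc3, which was not called, and of Icam1, which had too few fragments to test, with every match in capitals.
Tnfaip3 (chr10:19015361-19015660, minus strand): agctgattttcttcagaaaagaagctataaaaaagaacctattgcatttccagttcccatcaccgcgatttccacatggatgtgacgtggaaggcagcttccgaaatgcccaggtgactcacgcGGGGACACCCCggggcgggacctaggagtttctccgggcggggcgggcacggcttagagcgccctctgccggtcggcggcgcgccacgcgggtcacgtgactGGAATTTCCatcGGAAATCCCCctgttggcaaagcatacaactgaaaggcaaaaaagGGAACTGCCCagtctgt
Nfkbia (chr12:55492598-55492897, minus strand): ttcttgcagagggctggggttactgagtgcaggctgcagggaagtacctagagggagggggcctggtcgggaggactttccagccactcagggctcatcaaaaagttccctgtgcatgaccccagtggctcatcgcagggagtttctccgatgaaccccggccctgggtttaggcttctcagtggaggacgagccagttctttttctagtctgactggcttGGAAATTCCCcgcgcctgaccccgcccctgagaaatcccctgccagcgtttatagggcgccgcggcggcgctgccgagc
Nfkb2 (chr19:46304487-46304786, plus strand): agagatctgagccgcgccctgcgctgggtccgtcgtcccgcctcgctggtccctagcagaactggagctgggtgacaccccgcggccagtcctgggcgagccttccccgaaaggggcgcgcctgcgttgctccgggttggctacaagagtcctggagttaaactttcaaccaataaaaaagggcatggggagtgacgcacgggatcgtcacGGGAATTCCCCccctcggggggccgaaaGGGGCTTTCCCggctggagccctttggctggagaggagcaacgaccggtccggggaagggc
Icam1 (chr9:21015690-21015989, plus strand): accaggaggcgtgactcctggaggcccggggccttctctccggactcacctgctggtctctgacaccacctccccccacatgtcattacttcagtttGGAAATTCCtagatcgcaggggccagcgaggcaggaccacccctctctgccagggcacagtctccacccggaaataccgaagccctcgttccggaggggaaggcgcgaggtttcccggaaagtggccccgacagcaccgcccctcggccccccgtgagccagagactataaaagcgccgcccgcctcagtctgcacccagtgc
Birc3 (chr9:7873121-7873420, minus strand): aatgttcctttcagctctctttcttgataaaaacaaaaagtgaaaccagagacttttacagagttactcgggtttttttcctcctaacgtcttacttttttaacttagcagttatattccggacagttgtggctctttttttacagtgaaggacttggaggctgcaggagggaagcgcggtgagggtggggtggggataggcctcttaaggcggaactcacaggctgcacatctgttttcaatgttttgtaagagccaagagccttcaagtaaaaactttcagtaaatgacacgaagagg

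GGAATTTCC in Tnfaip3 lies 24 bases before the RefSeq start of the printed window and GGAAATCCCC lies 12 before it. The deposited locus of Tnfaip3 reaches to 19015657 and so takes in these bases. GGAAATTCC in Nfkbia begins 29 bases before the start, and the same 9 bases begin 153 before the start of Icam1. GGAANTTCC, the rarest spelling, was in 0.928% of all windows, against 5.56% for the spelling that ends with TTCC after GGG and 11.9% for the one that ends with CCC. The Birc3 window held no match to these letters. Nfkbie carried GGGGGATTCC beginning 106 bases before its start. The only match of Rela, GGGCCCGCCC beginning 66 bases before its start, was to the commonest spelling, the one that ends with CCC. The windows describe the genes and were not tested against their levels. Nfkb1, Relb and Vcam1 are named only.

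The subunit genes Nfkb1, Nfkb2 and Rela were the most abundant of the 10 in every library on the length-corrected FPKM scale. Nfkb2 (ENSMUSG00000025225, chr19:46304736-46327156) stood first in CT26, with 97.97 FPKM under shGFP and 110.7 under shmaurka-1, against 30.5 and 28.96 in MC38. Nfkb1 (ENSMUSG00000028163, chr3:135584654-135691547) gave 74.71 and 69.72 FPKM in CT26 and 36.52 and 33.02 in MC38. Rela (ENSMUSG00000024927, chr19:5637482-5648130) gave 54.58 and 58.81 in CT26 and 35.96 and 42.31 in MC38. Each of these 3 was higher in both CT26 libraries than in either MC38 library, and the same held for Relb (ENSMUSG00000002983, chr7:19606216-19629438), the partner of p52, at 42.47 and 54.12 FPKM against 11.02 and 12.74. On this scale 41% of all genes tested by line had both CT26 libraries above both MC38 libraries. The order differed by line, since Nfkb1 or Rela, not Nfkb2, led in MC38.

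Of the inhibitors, Nfkbia (ENSMUSG00000021025, chr12:55489409-55492647), whose product holds RelA dimers in the cytoplasm, was at 51.16 FPKM in CT26 shGFP, 46.73 in CT26 shmaurka-1, 12.98 in MC38 shGFP and 17.45 in MC38 shmaurka-1. Nfkbie (ENSMUSG00000023947, chr17:45555715-45563169), a second inhibitor of the same family, was at 17.04, 15.58, 2.114 and 2.042 FPKM in that order of libraries. For both genes the CT26 libraries lay above the MC38 libraries too.

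Among the targets, Tnfaip3 (ENSMUSG00000019850, chr10:19000909-19015657), which encodes the ubiquitin-editing enzyme A20, was at 38.98 and 42.22 FPKM in CT26 and 1.202 and 1.182 in MC38. Vcam1 (ENSMUSG00000027962, chr3:116109948-116141016) was at 42.16 and 26.81 FPKM in CT26 and 3.868 and 3.069 in MC38, with the shGFP library the higher in each line. Birc3 (ENSMUSG00000032000, chr9:7848698-7873186), which encodes the ubiquitin ligase cIAP2, was at 6.165 and 4.834 FPKM in CT26 and 3.908 and 4.026 in MC38. These 3 genes range from a wide gap between the lines to a narrow one. Icam1 (ENSMUSG00000037405, chr9:21015984-21039036) was the lowest of the 10 in all 4 libraries, at 0.08628, 0.09758, 0.07703 and 0.07825 FPKM in the order above, from 6 fragments in each library. Its listed locus also covers Icam4, Icam5 and 3 other genes, and whether the authors' counting used the strand is not given in the sources used here.

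**Figure D1:**
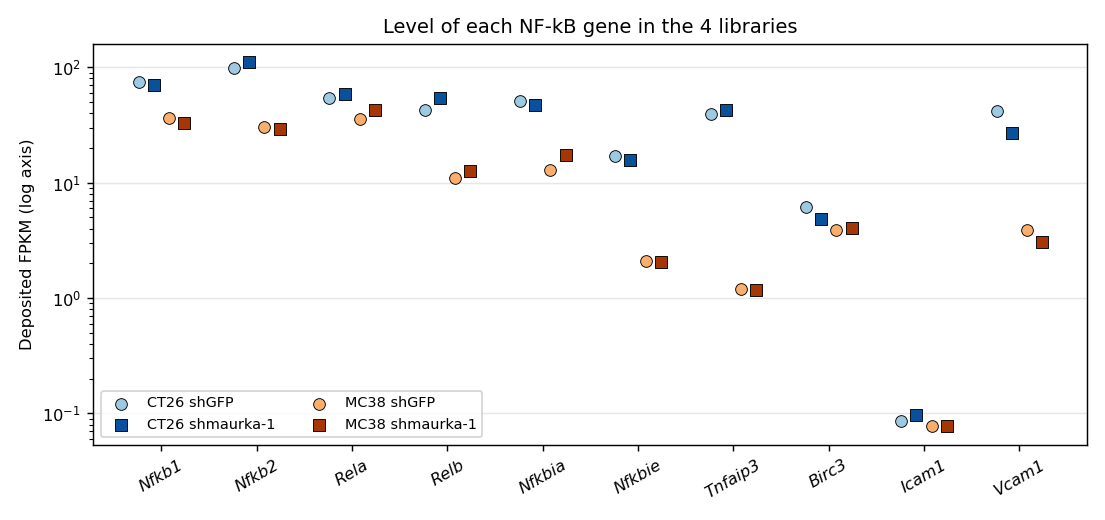
Deposited FPKM of each of the 10 genes, on a log axis, with 1 point for each library (circles shGFP, squares shmaurka-1, blue CT26, orange MC38). Tnfaip3 lies at 38.98 and 42.22 in CT26 and 1.202 and 1.182 in MC38, while the 4 points of Icam1 lie between 0.07703 and 0.09758.

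CT26 held more mRNA than MC38 of all 4 subunit genes, both inhibitor genes, Tnfaip3 and Vcam1. In edgeR's quasi-likelihood test of line with hairpin as a block, 8 of the 9 genes tested were higher in CT26 at an adjusted p under 0.05 and 0 were higher in MC38. All 9 had a mean of 10 counts in each line. The members were chosen with earlier results of these data known. Across the 13984 genes tested, 36.5% were called higher in CT26 and 39.6% in MC38, and the median log2 difference, CT26 minus MC38, was 1.80 for the 9 and -0.0433 for all. Icam1 was left out by the filter, which asked for a mean of 10 counts. All p-values of this test rest on 4 libraries and 1 residual degree of freedom, with the spread taken from all genes. They do not measure the spread between replicate cultures of a line, since there were none, and 76.1% of all genes tested were called. In bulk RNA fewer expressing cells and less RNA per cell cannot be told apart. Counted another way, 7 of the 9 were more than 2-fold higher in CT26 in both hairpin pairs, against 15.1% of all genes tested. With libraries scaled by their total count it was 6 of the 9, without Nfkb1, against 10.8%.

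Tnfaip3 showed the widest gap, with 3653 and 3605 fragments in CT26 against 127 and 121 in MC38. It was 34.9-fold higher in CT26 between the shGFP libraries and 38.2-fold between the shmaurka-1 libraries, with log2 differences of 5.13 (95% interval 4.88 to 5.41) and 5.26 (5.01 to 5.54), and its adjusted p in edgeR was 1.08e-303. Vcam1 followed at 11.02-fold and 10.3-fold, from 2690 and 1553 fragments against 298 and 194, with an adjusted p of 6.95e-142 in edgeR. For both genes the lines lay far apart under either hairpin. Of the endothelial markers, Pecam1 was at 0.392 FPKM or less in all 4 libraries, while by edgeR Vwf was higher in CT26 with an adjusted p of 0.0123 and Cdh5 was higher in MC38 with 2.25e-09. Emcn passed the filter through MC38 alone, with 1 and 2 fragments in CT26 against 21 and 40. The part of these markers in the Vcam1 difference was not tested.

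The inhibitors differed by line to a smaller degree. Nfkbie was 8.22-fold higher in CT26 under shGFP and 7.33-fold under shmaurka-1, with 1094 and 883 fragments against 162 and 155, and an adjusted p of 2.40e-79 in edgeR. Nfkbia was 4.15-fold higher under shGFP and 2.58-fold under shmaurka-1, with 2030 and 1619 fragments against 598 and 812, and an adjusted p of 2.92e-45 in edgeR. The log2 intervals of the Nfkbia pairs, 1.92 to 2.19 and 1.25 to 1.49, did not overlap, so its gap between the lines was narrower in the knockdown libraries by more than counting error.

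Among the subunits the gap was widest for the non-canonical members. Relb was 4.17-fold and 4.16-fold higher in CT26 in the shGFP and shmaurka-1 pairs, and Nfkb2 3.32-fold and 3.68-fold, with adjusted p of 2.39e-73 and 7.64e-75 in edgeR. Nfkb1 was 2.18-fold and 2.26-fold higher, with an adjusted p of 1.85e-31 in edgeR. Rela had the smallest called difference, 1.60-fold and 1.33-fold, with an adjusted p of 7.93e-08 in edgeR. Rela was the only one of the 8 called genes to lose its call under an alternative: with libraries scaled by their total count its log2 difference, MC38 minus CT26, was -0.20 with an adjusted p of 0.0551 in edgeR. That scaling moved the median of all genes, MC38 minus CT26, from 0.0433 to 0.382 and the share of calls higher in CT26 from 47.9% to 33.5%. The locus of Nfkb2 also covers Psd, which had 45 to 227 fragments, and that of Nfkb1 covers Gm43430, which had 0 to 2, and that of Vcam1 covers Gm43109, which had 0 to 1.

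For Birc3 and Icam1 no difference between the lines was called. Birc3 had 174 and 142 fragments in CT26 and 200 and 219 in MC38, a fold of 1.07 under shGFP and 0.841 under shmaurka-1, and its adjusted p in edgeR was 0.736. The log2 intervals were -0.21 to 0.39 and -0.57 to 0.06, CT26 minus MC38. The FPKM of Birc3 gave another picture, 1.58-fold and 1.20-fold higher in CT26, with 29.9 and 34.3 counts to 1 FPKM in CT26 and 45.3 and 49.0 in MC38. With 6 fragments in each library, Icam1 allowed log2 differences from -1.61 to 2.196 and from -1.53 to 2.28, so a difference of 2-fold either way was not detectable at this depth.

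**Figure D2:**
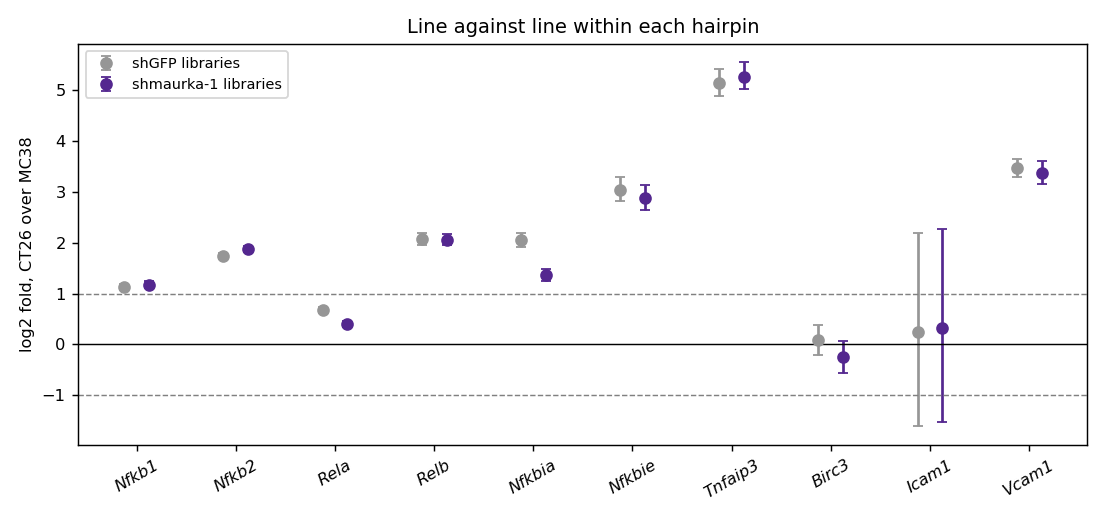
Log2 fold of CT26 over MC38 for the 10 genes in the shGFP libraries (grey) and the shmaurka-1 libraries (purple), with bars for 95% counting intervals and dashed lines at 2-fold. The 7 genes other than Rela, Birc3 and Icam1 lie above the upper line in both pairs, Rela lies between 0.41 and 0.67, and the bars of Birc3 and Icam1 cross 0.

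Since each subunit is measured per length, the make-up of the subunit mRNA can be set out for a library. Nfkb2 made up 34.9% of the summed FPKM of the 5 subunit genes (the 4 above and Rel) in CT26 shGFP, 36.6% in CT26 shmaurka-1, 25.4% in MC38 shGFP and 23.6% in MC38 shmaurka-1. Rela made up 19.5%, 19.4%, 29.9% and 34.5% in the same order. Nfkb2 thus held a larger share in both CT26 libraries and Rela in both MC38 libraries. Relb took 15.1% and 17.9% in CT26 against 9.17% and 10.4% in MC38. Nfkb1 took 23.0% to 30.4%, with the shGFP library above the shmaurka-1 library in each line, and Rel took 3.04% to 5.10%. These shares are a description of mRNA with no test and say nothing of protein or of p100 processing.

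**Figure D3:**
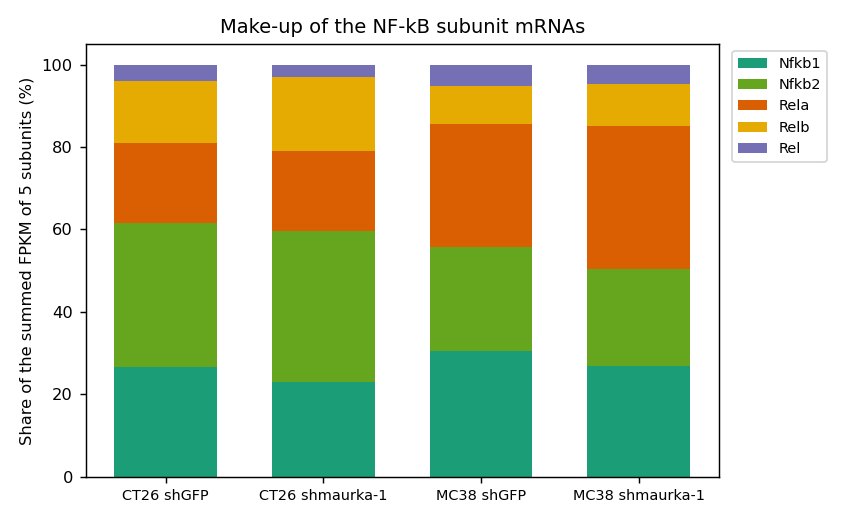
Share of the summed FPKM of Nfkb1, Nfkb2, Rela, Relb and Rel held by each gene, in percent, 1 bar for each library. Nfkb2 takes 34.9% and 36.6% in CT26 and 25.4% and 23.6% in MC38, and Rela 19.5% and 19.4% against 29.9% and 34.5%.

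Under knockdown of Aurora-A, Vcam1 was the only one of the 10 genes to pass a test. None of the 10 passed the thresholds of the study, more than 1.5-fold higher or under 0.6-fold, in either line. Of the 11928 genes tested, 3.2% passed the upper and 2.58% the lower threshold in CT26, and 2.47% and 1.03% in MC38. When edgeR's quasi-likelihood method tested the change that both lines share, with line as the block, 1 of the 9 genes tested was called, Vcam1, which fell, and 0 were called higher. Of all genes 1.67% were called higher and 1.12% lower. At an unadjusted p under 0.05, 2 of the 9 passed in edgeR, Vcam1 and Relb, against 12.3% of all genes tested. The median log2 change of the 9 was 0.0193, against -0.00225 for all genes.

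Vcam1 counted 1553 fragments under shmaurka-1 against 2690 under shGFP in CT26, and 194 against 298 in MC38. The fold was 0.628 in CT26, a log2 change of -0.67 (95% interval -0.76 to -0.58), and 0.666 in MC38, -0.59 (-0.86 to -0.32). The shmaurka-1 library was thus the lower in both lines, and the changes differed by 0.08 (-0.19 to 0.36) on the log2 scale, MC38 minus CT26. In edgeR the common log2 change was -0.64 with an adjusted p of 0.000106, and over the alternatives the adjusted p ran from 7.07e-05 to 1, the last without line as a block. On the deposited FPKM with a pseudocount of 0.1 the MC38 change was smaller, -0.32, where 1 FPKM stood for 68.2 counts in MC38 shGFP and 56.9 in MC38 shmaurka-1. The summed endothelial markers also moved down, with 1.04 FPKM against 0.916 in CT26 and 2.65 against 2.06 in MC38, but single markers went both ways. In CT26 Vwf went from 0.464 to 0.210 FPKM, and Cdh5 from 0.197 to 0.375 on 24 and 25 fragments. In MC38 Cdh5 went from 173 to 81 fragments and Pecam1 from 42 to 18, while Emcn went from 0.547 to 0.984 FPKM. By edgeR 0 of the 3 endothelial markers tested for knockdown were called. The summed leukocyte markers were lower as well, with 4.41 against 3.56 in CT26 and 5.46 against 4.44 in MC38. Most of that sum was Cd68, at 4.15 against 3.30 FPKM in CT26 and 4.97 against 4.03 in MC38. The adjusted p of Cd68 in edgeR was 0.768. Csf1r had 9 fragments against 13 in CT26 and 39 against 24 in MC38, so the markers did not all fall. Of 11 fibroblast markers tested, 4 had an unadjusted p under 0.05 in edgeR, against 12.3% of all genes, and 0 were called. Dcn, Pdgfra and Col1a1 were lower in the common change and Pdgfrb was higher. The part of these markers in the Vcam1 result was not tested.

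By counts, the subunits changed by at most 0.26 on the log2 scale in either line. On FPKM with a pseudocount of 0.1 the CT26 changes were larger for Relb, at 0.35, Nfkb2, at 0.18, and Rela, at 0.11. Relb was higher under shmaurka-1 in both lines, at 2783 against 2596 fragments in CT26 and 866 against 761 in MC38, a log2 change of 0.22 (0.14 to 0.30) and 0.22 (0.07 to 0.36), but its adjusted p in edgeR was 0.390. Nfkb1 had a log2 change of -0.11 (-0.17 to -0.06) in CT26 and -0.18 (-0.25 to -0.11) in MC38, with an adjusted p of 0.6 in edgeR. Both lines lay on the same side for these genes, beyond counting error, and neither passed the test across lines. For Rela the log2 change was 0.01 (-0.06 to 0.07) in CT26 and 0.26 (0.20 to 0.33) in MC38. For Nfkb2 it was 0.10 (0.06 to 0.14) in CT26 and -0.06 (-0.13 to 0.01) in MC38. The gap between the lines, MC38 minus CT26, was 0.26 (0.17 to 0.35) for Rela and -0.16 (-0.24 to -0.08) for Nfkb2, beyond counting error and without a replicate to test it. On the FPKM scale it was 0.13 for Rela and -0.25 for Nfkb2.

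The largest gap between the lines was that of Nfkbia. It counted 1619 fragments under shmaurka-1 against 2030 under shGFP in CT26, a log2 change of -0.21 (-0.30 to -0.11), and 812 against 598 in MC38, 0.47 (0.32 to 0.63). The library with knockdown was thus the lower in CT26 and the higher in MC38. The gap was 0.68 (0.50 to 0.85), and the common effect had an adjusted p of 0.822 in edgeR. Nfkbie had a log2 change of -0.19 (-0.32 to -0.06) in CT26 and -0.03 (-0.36 to 0.29) in MC38, where it rests on 162 and 155 fragments.

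The remaining targets showed no change that passed the test. Tnfaip3 had a log2 change of 0.10 (0.03 to 0.17) in CT26 and -0.04 (-0.41 to 0.33) in MC38. Birc3 had one of -0.17 (-0.50 to 0.16) and 0.16 (-0.12 to 0.44). Their adjusted p in edgeR was 0.925 and 0.998. The intervals leave room for changes of Birc3 in either direction. Icam1 stayed at 6 fragments in each library, with intervals of -1.78 to 2.02 in CT26 and -1.87 to 1.93 in MC38.

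**Figure D4:**
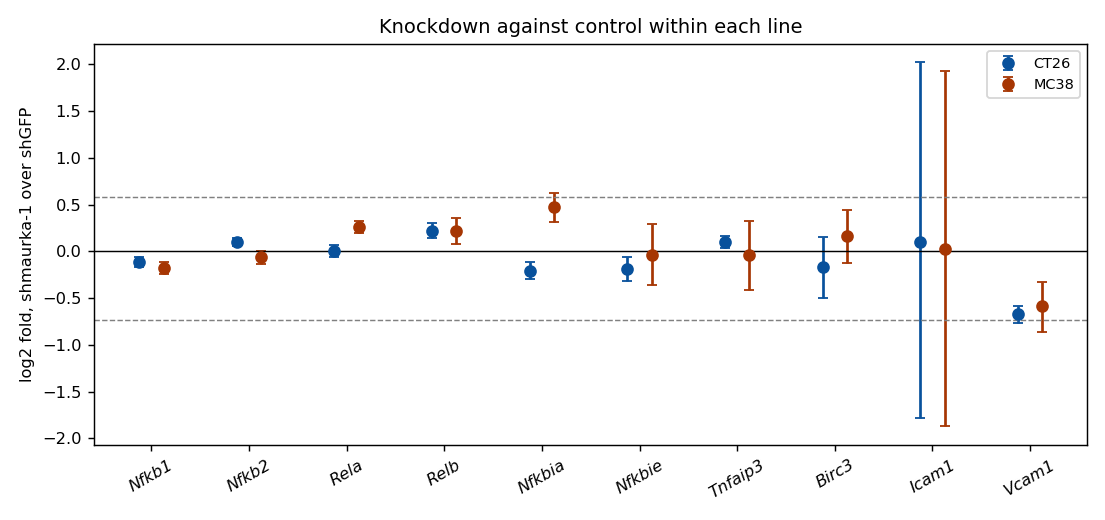
Log2 fold of shmaurka-1 over shGFP for the 10 genes in CT26 (blue) and MC38 (orange), with bars for 95% counting intervals and dashed lines at 1.5-fold and 0.6-fold. Vcam1 lies at -0.67 and -0.59, Nfkbia at -0.21 in CT26 and 0.47 in MC38, and no point lies beyond a dashed line.

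Other genes of the pathway were read from lists written by role. The lists were chosen with earlier results of these data known, so the counts below are descriptions. Of the 5 other subunit and inhibitor genes, 3 were higher in CT26 and 0 in MC38 by edgeR at an adjusted p under 0.05, against 36.5% and 39.6% of all genes. Nfkbiz, an inhibitor-like nuclear protein induced by NF-kB, was 21.1-fold higher in CT26, with 4967 and 5528 fragments against 256 and 376. Nfkbib, a further inhibitor, was 4.33-fold higher at a locus that covers 3 genes, and Rel, the c-Rel subunit, was 1.71-fold higher. Nfkbid had 93, 70, 89 and 104 fragments in the order CT26 shGFP, CT26 shmaurka-1, MC38 shGFP and MC38 shmaurka-1, and Bcl3, a nuclear partner of p50 and p52, had 216, 169, 269 and 315. Their adjusted p in edgeR were 0.811 and 0.165. Under knockdown, Nfkbiz was the only 1 of the 5 called, with a common log2 change of 0.39 and an adjusted p of 0.0203 in edgeR, where 1.67% of all genes were called higher. The call was lost in DESeq2, with an adjusted p of 0.399, and in edgeR without line as a block, with 1.

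Of the 12 genes for the IKK complex and the kinases above it, 8 were called higher in CT26 and 2 in MC38 in edgeR, against 36.5% and 39.6% of all genes. Map3k14, the kinase of the non-canonical route, was 6.46-fold higher in CT26, with 1231 and 962 fragments against 200 and 224. Ikbke and Tbk1, the IKK-related kinases, were 2.82-fold and 2.41-fold higher. Tab2, an adaptor of the kinase TAK1, was the only gene of this list called under knockdown, with a common log2 change of 0.38 and an adjusted p of 0.00682 in edgeR, where 1.67% of all genes were called higher. This call too was lost in DESeq2, with an adjusted p of 0.276, and in edgeR without the block, with 1.

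Receptors and adaptors went both ways. Of the 19 with a mean of 10 counts in each line, 15 were called higher in CT26 and 4 in MC38 in edgeR, against 38.4% and 34.8% of all genes so filtered. The other 2 tested, Cd40 and Tlr2, passed the filter through MC38 alone, where they are high, and their calls are not counted. By knockdown, 0 of 19 were called in edgeR, although 5 had an unadjusted p under 0.05, a cut that 12.3% of all genes passed. Tnfrsf12a, the receptor for TWEAK, was 16.1-fold higher in CT26, with 18529 and 15437 fragments against 1362 and 1278. Cd40, a receptor of the non-canonical route, had 1 fragment in each CT26 library and 126 and 123 in MC38. Tlr2, a receptor for bacterial lipoproteins, had 1 and 3 in CT26 and 128 and 99 in MC38. Of 7 ligands only Tnfsf12, which encodes TWEAK, had counts enough to test, with 117 and 103 fragments in CT26 and 218 and 193 in MC38 at a locus that covers 4 genes. The other 6, Tnf and Il1b among them, had at most 4 fragments in any library.

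Of 12 negative regulators apart from the genes above, 5 were called higher in CT26 and 6 in MC38 by edgeR, near the shares of 36.5% and 39.6% over all genes. Under knockdown 0 were called, and 0 of the 12 had an unadjusted p under 0.05. Zc3h12a, which encodes the RNase Regnase-1, was 11.6-fold higher in CT26, with 751 and 674 fragments against 80 and 74, and Otulin, a deubiquitinase of linear chains, was 2.07-fold higher. Nkiras1, which encodes a Ras-like protein that binds the inhibitors, was higher in MC38, with 43 and 26 fragments in CT26 and 117 and 97 in MC38.

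Of 22 other NF-kB target genes with a mean of 10 counts in each line, 12 were called higher in CT26 and 7 in MC38 in edgeR, against 38.4% and 34.8% of all genes so filtered. A further 5 passed the filter through 1 line alone, so their calls are not counted, and the 3 named next are among them. Csf2, which encodes GM-CSF, had 339 and 172 fragments in CT26 and 0 and 1 in MC38. Ccl20, a chemokine, had 354 and 310 against 2 and 1, and Sele, which encodes E-selectin, 565 and 524 against 11 and 7. Csf2 and Ccl20 were under the floor of 3 fragments in both MC38 libraries. Under knockdown, 6 of 22 were called higher in edgeR and 0 lower, against 1.67% and 1.12% of all genes. As the list was chosen with earlier results of these data known, this count describes the list and does not test it. Ccl2, a monocyte chemokine, counted 16 fragments under shmaurka-1 against 9 under shGFP in CT26, and 1100 against 468 in MC38. Cxcl10, a T-cell chemokine at a locus that covers 4 genes, had 1588 against 1367 in CT26 and 7449 against 2778 in MC38, and Lcn2, whose product binds bacterial iron carriers, had 2160 against 952 in CT26 and 459 against 346 in MC38. The other 3 were Cxcl1, Csf1 and C3, named after their values were seen. The higher levels were not shared evenly, since C3 had a log2 change of 1.32 in CT26 and -0.10 in MC38. Map3k14, Csf2, Ccl2 and C3 lie at listed loci that cover 2 genes, and Ikbke and Nkiras1 at loci that cover 3. DESeq2 called 1 of the 22, Lcn2, and gave no adjusted p for Ccl2, and edgeR without the line as a block called 0. The median common log2 change of the 22 was 0.0437, and 9 had an unadjusted p under 0.05, against 12.3% of all genes.

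**Figure D5:**
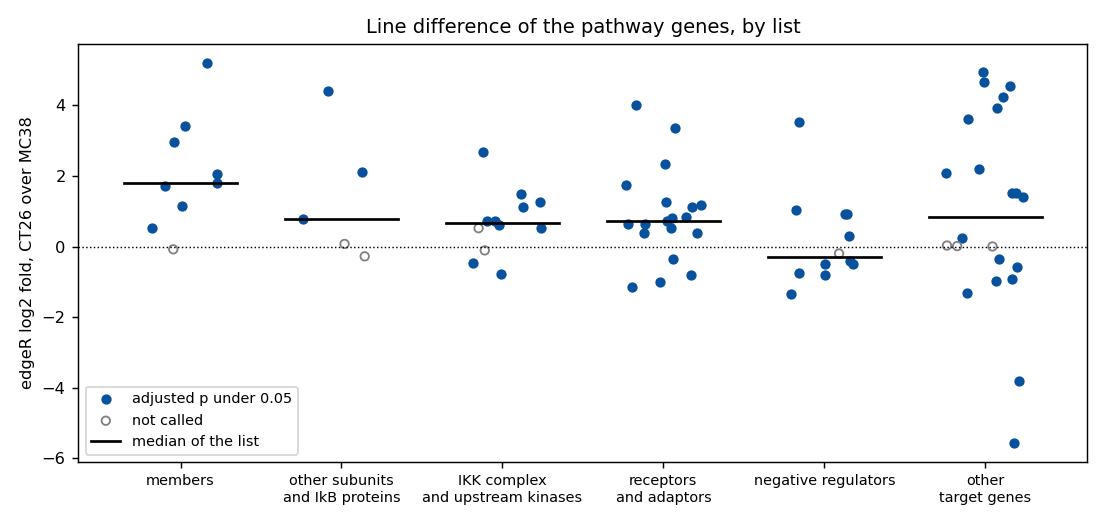
Log2 fold of CT26 over MC38 from edgeR for each gene with a mean of 10 counts in each line, by list, with filled points for an adjusted p under 0.05, open points for genes not called and bars for the median of each list. The medians are 1.80 for the 9 members tested, 0.777 for the other subunits and inhibitors, 0.658 for the IKK genes, 0.722 for receptors and adaptors, -0.306 for negative regulators and 0.825 for other target genes, against 0.0423 for all genes so filtered.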

How the data were processed

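RNA-seq was deposited for 4 cultures, 1 library each, prepared with a strand-specific kit. The submitters' processing notes name Trimmomatic 0.36, HISAT2, Cufflinks 2.2.1 and Cuffdiff, and the build GRCm39, but 99.8% of 20020 genes compared overlap their RefSeq GRCm38.p6 position and 9.64% of 22918 a GRCm39 one, so coordinates are given as GRCm38. The authors deposited estimated counts, scaled between libraries, and FPKM values per gene. Of the nonzero counts, 97.1% to 97.7% were whole multiples of 1 step per library, within 0.05, and dividing by the step gave the fragments printed. Fragments are not independent molecules, so intervals cover counting error only.

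Folds are ratios of TMM-scaled deposited counts with 1 count added (edgeR 4.0.16, R 4.3.3). The quasi-likelihood tests used counts rounded to whole numbers, with Benjamini-Hochberg adjustment over 11928 genes for knockdown (10 counts or more on average per line) and 13984 for line (10 counts or more on average over the 4 libraries), and the other factor as a block. Residual degrees of freedom were 1. Python 3.11.15 with pandas 2.3.3 and matplotlib 3.10.9 did the rest. A run on simulated counts, with each added change the same in both pairs, checked only that the tests recover such changes. It does not show how often calls on these data are wrong. Alternatives were other scalings, filters, added counts, recovered fragments, FPKM, DESeq2 1.42.0 and no block. The members and lists were chosen with earlier results of these data known. Named beside the members are Aurka, all 5 other subunit and inhibitor genes and, from each other list, at most the 3 called genes with the largest log2 change in each test. Other genes named from the lists, among them Cxcl1, Csf1, C3, Tnf, Il1b and the cell type markers, were chosen after their values were seen. No column of the authors' own comparisons was used.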

Additional observations from a re-analysis of the deposited data

Results flagged for a closer look

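Nfkbia was singled out because its libraries moved in opposite directions under knockdown in the lines, with a log2 change of -0.21 in CT26 and 0.47 in MC38. The gap of 0.68 on the log2 scale, MC38 minus CT26, exceeds counting error, with an interval of 0.50 to 0.85. There is 1 library for each condition, and whether the lines differ beyond the spread between cultures was not tested.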

How the results depend on the processing

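Of 486 values recomputed under an alternative, 439 kept their call, stayed within counting error or, for counts of calls, stayed within 1.5 times. A further 22 log2 values moved beyond counting error, 9 counts moved further, and 16 values lost their call. No called value changed sign, but 9 values that were not called did, among them the Birc3 difference by line, MC38 minus CT26, which went from 0.08 to -0.45 on FPKM with a pseudocount of 0.1. Without line as a replicate block, 0 members were called under knockdown instead of 1, with Vcam1 at a common log2 change of -0.66 and an adjusted p of 1 in edgeR. With a lower threshold of 1/1.5 in place of 0.6, 1 member passed in CT26 and 1 in MC38. In both lines it was Vcam1, at 0.628-fold in CT26 and 0.666-fold in MC38. The share of all genes past that threshold was not computed. A second lost call is that of Rela by line under total-count scaling. The other 14 are knockdown calls of 8 genes outside the members, 8 without the block and 6 in DESeq2. Among all genes, 199 were called higher and 134 lower under knockdown, against 20 and 17 in DESeq2, 0 and 0 without the block and 157 and 163 under total-count scaling, which by line gave 3592 higher in CT26 and 7145 in MC38 against 5100 and 5544. No library could be left out with a test, since 1 pair would remain, and the fold of each pair stands in its place. Depth limits Icam1 most, with 6 fragments in each library.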
